A study of Homo sapiens with 6 samples.

Results

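The genes described here are 47 human genes of ribosome biogenesis and the nucleolus, chosen by symbol and found among the 58825 gene identifiers of the deposited table. All 47 were matched and all 47 passed the filter on low counts. Their messenger RNA was measured by RNA-seq in SKOV3, a human epithelial ovarian cancer cell line. There were 2 groups of 3 libraries each: NC, which received a negative control siRNA, and si-EIF5A2, which received an siRNA against EIF5A2. RNA was taken 48 h after transfection, a time that the series' design text gives and the sample labels do not. Both groups received an siRNA, so untransfected cells were not part of the comparison, and a single siRNA sequence against EIF5A2 is listed for the study. The design asks which transcripts change when EIF5A2, a gene for a translation factor of the eIF5A family, is knocked down.

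Ribosomes are built in the nucleolus, where RNA polymerase I transcribes ribosomal DNA into a long precursor RNA. Small nucleolar ribonucleoproteins of the box C/D and box H/ACA classes modify this precursor, the small subunit processome folds and cleaves it, and separate sets of factors then carry the pre-40S and pre-60S particles to maturity and to the cytoplasm. Cancer cells are known for large nucleoli and active ribosome production, and many genes of the pathway are textbook targets of MYC, which binds the E-box.

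The total of the estimated counts lay between 46900204 and 74142267 per library, with a median of 70742155 in NC and 50607604 in si-EIF5A2. EIF5A2 itself was at 27.8, 29.8 and 29.9 CPM (counts scaled to a common library total) in the NC libraries and at 2.76, 4.04 and 4.27 CPM in the si-EIF5A2 libraries, or 12.7% of the NC mean (log2 fold change -2.98, SE 0.18, edgeR adjusted p = 1.6e-05). KRT7, KRT8 and KRT18 of the epithelial marker list were abundant, whereas KRT19 lay between 2.241 and 3.85 CPM. EPCAM lay between 1.149 and 1.682 CPM, CDH1 between 0.172 and 1.002 CPM, and MUC16 was at 0 in every library. The 8 epithelial markers summed to 1410 to 1551 CPM in NC and 898 to 1102 CPM in si-EIF5A2. The lower sum lay mainly in KRT7 (354.7 to 406.7 against 201.1 to 218.3 CPM) and KRT8 (561.4 to 659.2 against 349.4 to 397.8 CPM). Ranges of the groups overlapped for KRT18 (376.4 to 443.3 against 296.5 to 457.3 CPM) and ERBB2 (44.5 to 48.59 against 42.11 to 47.91 CPM). The leukocyte list of 6 genes rested on CD68, with PTPRC, CD3E and MS4A1 at 0, and summed to 40.8 to 57.4 CPM in NC and 28.97 to 55.46 CPM in si-EIF5A2. The 6 fibroblast markers summed to 0.872 to 1.41 CPM in NC and 0.861 to 3.23 CPM in si-EIF5A2, and the 5 endothelial markers to 1.94 to 2.37 CPM and 0.157 to 1.001 CPM. CPM is a share of the RNA sequenced, so fewer cells of a kind and less RNA per cell cannot be told apart, and a change in total RNA per cell would not show.

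A short sequence shared by many of these promoters is the E-box, which reads CACGTG on both strands. It was searched in RefSeq promoter windows of GRCh38.p14, which run from 250 bases before to 50 bases after each transcription start. A window was found for 42 of the 47 genes, and NOP58, NOLC1, POLR1E, RRP12 and BOP1 had none. The E-box lay in 19 of these 42 genes (45.2%), against 1395 of 11171 tested genes with a window (12.5%), 26 of 109 other ribosome biogenesis genes (23.9%) and 2548 of all 35116 windows (7.26%). A match of letters is a description and not a measured binding site. The windows below stand for members that were lower (PNO1, FBL, NAT10), higher (NOP10, GNL3) or close to NC (DDX21) after knockdown, with the E-box in capitals, and they were chosen after the values were seen.
PNO1: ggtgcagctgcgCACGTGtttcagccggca
FBL: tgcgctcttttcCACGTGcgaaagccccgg
NAT10: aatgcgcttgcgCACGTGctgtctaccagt
NOP10: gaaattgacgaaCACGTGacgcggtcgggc
GNL3: ggcttcagttcaCACGTGgcgccagcggag
DDX21: ggccgggtgtccCACGTGgtccccggcgac

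These windows lie at chr2:68157885-68157914 on the plus strand for PNO1, chr19:39846356-39846385 on the minus strand for FBL and chr11:34105602-34105631 on the plus strand for NAT10. Those of NOP10, GNL3 and DDX21 lie at chr15:34343130-34343159 on the minus strand, chr3:52686026-52686055 on the plus strand and chr10:68956604-68956633 on the plus strand. Counted from the transcription start as base 1, the first base of the E-box was at 10 in PNO1, 7 in FBL and 7 in GNL3, inside the transcribed part, and at -15 in NAT10, -11 in NOP10 and -31 in DDX21, before it. NOP10 carried another E-box at -170.

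The E-box was unevenly spread over the roles. It was present in 7 of 9 genes of the small subunit processome (77.8%), namely WDR43, UTP4, UTP14A, UTP20, RRP9, NOL6 and NAT10, and in 0 of 6 genes of RNA polymerase I. The remaining holders were FBL, GAR1, NOP10, DDX21, MYBBP1A, BYSL, PNO1, LTV1, PES1, GNL2, GNL3 and EBNA1BP2. Of the genes called changed below, 1 of the 5 with a window had the E-box (PNO1), against 18 of 37 genes not called.

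**Figure D1:**
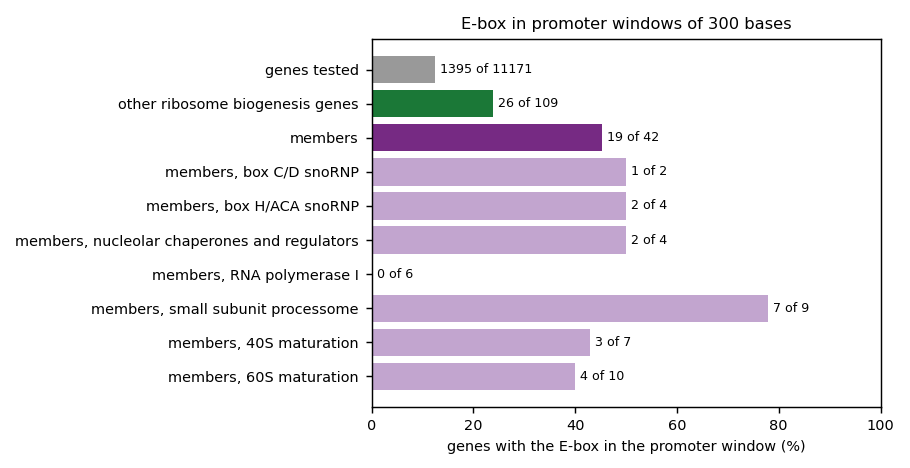
Share of genes (x axis, percent) whose promoter window of 300 bases holds the E-box, for the tested genes, the other ribosome biogenesis genes, the 47 members and the members by role; counts stand beside the bars. The members reached 45.2% and the tested genes 12.5%, and the bar of RNA polymerase I is empty.

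Most of the 47 genes moved little. A gene was called when its adjusted p was under 0.05 and its fold change over 1.5; the p came from the quasi-likelihood test of edgeR, adjusted after Benjamini and Hochberg over all 16208 genes tested. By this rule 7 of the 47 were called (14.9%), against 24.6% of all genes tested and 27.4% of the 7573 tested genes within the same range of mean CPM. Lower were NOB1, POLR1E, NCL, PNO1 and UBTF, or 5 of 47, with 13.6% of all genes called lower. Higher were NOLC1 and RIOK2, with 11.1% of all genes called higher. With the adjusted p alone, 21 genes passed (44.7%), 14 lower and 7 higher, against 36.9% of all genes and 50.3% of the genes within the same range of mean CPM. Of all genes 3063 passed lower and 2911 higher, and within that range 1722 lower and 2089 higher. Ranges of the groups did not overlap for 32 genes (68.1%), 20 lower and 12 higher in si-EIF5A2. The same held for 51.2% of all genes tested, 4296 lower and 4000 higher. Within the same range of CPM it held for 62.0%, 2142 lower and 2557 higher. Nothing in the labels says that the libraries came from separate cultures, so all p-values measure the spread between these libraries, which may be technical.

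The size of the changes was small beside that of the transcriptome. The median log2 fold change of the 47 genes was -0.12, against -0.01 for all genes and 0.04 within the members' range of CPM. The median of its size without sign was 0.24, against 0.45 for all genes and 0.37 within that range. The log2 fold change was smaller than 0.3 in either direction for 25 of 47 genes, for 5835 of all 16208 genes and for 3224 of the 7573 within that range. The middle of the distribution ran from -0.38 at the first quartile to 0.14 at the third, and the ends were NOB1 at -2.41 and NOLC1 at 1.38.

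**Figure D2:**
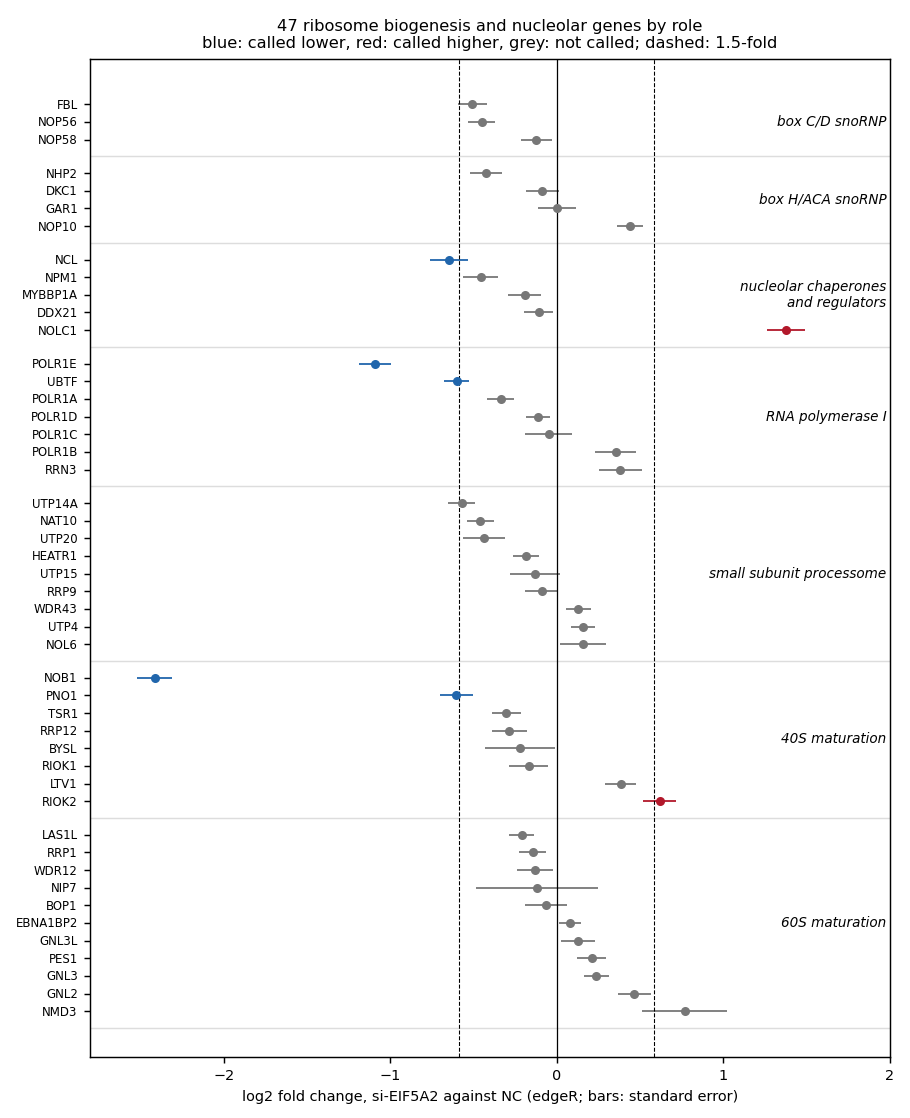
Log2 fold change of si-EIF5A2 against NC (x axis) for each of the 47 genes, ordered within 7 roles; points are edgeR estimates, bars their standard errors, and the dashed lines mark a 1.5-fold change. NOB1 at -2.41 and NOLC1 at 1.38 lie apart from the rest. The 11 genes of 60S maturation include no called gene, where 24.6% of all genes tested were called.

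**Figure D3:**
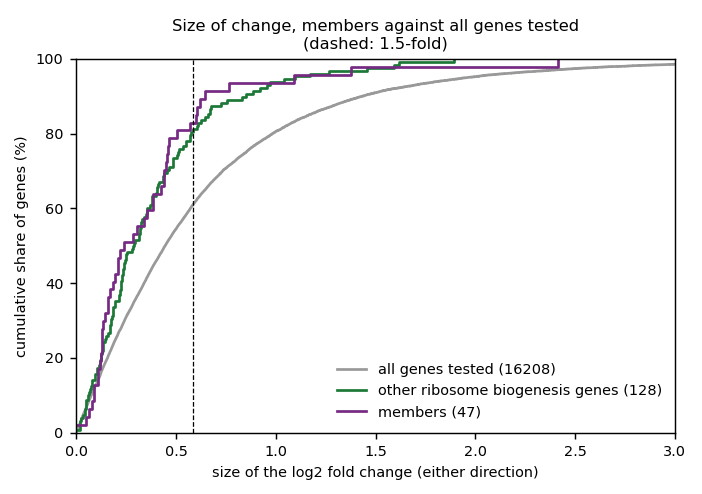
Cumulative share of genes (y axis, percent) against the size of the log2 fold change in either direction (x axis) for the 47 members, 128 other ribosome biogenesis genes and all 16208 genes tested. Beyond the smallest changes the curves of the members and of the other pathway genes lie above that of all genes, with medians of 0.24, 0.29 and 0.45.

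RNA polymerase I was represented by 7 genes, of which 2 were called (28.6%), both lower, POLR1E and UBTF. This share is near the 24.6% of all genes tested, and counts by role here and below rest on few genes each. POLR1E encodes PAF53, the subunit that forms a heterodimer on the periphery of the enzyme, and it stood at 48.0, 50.1 and 55.9 CPM in NC and at 24.7, 23.1 and 24.5 CPM in si-EIF5A2. The groups were far apart, and the 3 si-EIF5A2 libraries lay within a narrow range. POLR1E fell by 1.09 on the log2 scale (SE 0.09, edgeR adjusted p = 8.6e-05), to 46.9% of the NC mean. UBTF encodes the upstream binding factor, which opens ribosomal DNA for the polymerase, and was at 108, 118 and 115 CPM in NC and 78.3, 75.3 and 71.3 CPM in si-EIF5A2. Its groups did not overlap, and its log2 fold change was -0.60 (SE 0.08, edgeR adjusted p = 0.00054). UBTF sat close to the 1.5-fold limit and was no longer called without NC library 2 (-0.58) or without si-EIF5A2 library 3 (-0.57).

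The large catalytic subunits differed in sign. POLR1A, the largest subunit, was lower by less than 1.5-fold (log2 fold change -0.34, edgeR adjusted p = 0.011), and POLR1B, its catalytic partner, had 0.35 with an adjusted p of 0.058 by the same test. RRN3, the initiation factor that recruits the polymerase, was higher by less than 1.5-fold (0.38, edgeR adjusted p = 0.048). Pseudogenes of RRN3 held 10.5% as many counts as the gene, so its value is less certain. POLR1C and POLR1D, both shared with RNA polymerase III, had log2 fold changes of -0.05 and -0.11 and did not pass the test. POLR1C shares 348 exon bases with XPO5 on the opposite strand, which held 246% as many counts, and nothing in the sources used here states whether strand was used in counting. The CPM ratio of POLR1E to POLR1A was 0.706 ± 0.066 (SD, n = 3) in NC and 0.419 ± 0.032 in si-EIF5A2, a pair chosen after the values were seen.

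The box C/D proteins leaned lower with no gene called (0 of 3, all genes 24.6%). FBL, the methyltransferase fibrillarin, had the largest change of the 3 and read 284, 305 and 280 CPM in NC and 183, 220 and 209 CPM in si-EIF5A2. The groups did not overlap. Its log2 fold change was -0.51 (SE 0.09, edgeR adjusted p = 0.0026), or 70.4% of NC. The scaffold protein NOP56 was also lower by less than 1.5-fold (-0.45, edgeR adjusted p = 0.0038), and its partner NOP58 had -0.12 and did not pass the test. NOP56 hosts small nucleolar RNAs, and 472 of its exon bases are shared with small RNA genes on the same strand, where fragments could be split between genes.

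The 4 box H/ACA core proteins, which form 1 complex, did not share a direction. NOP10, the smallest of them, read 173, 169 and 170 CPM in NC and 216, 251 and 226 CPM in si-EIF5A2, higher in all 3 libraries. Its log2 fold change was 0.44 (SE 0.08, edgeR adjusted p = 0.0029), under the 1.5-fold limit. NHP2 went the other way with -0.42 (edgeR adjusted p = 0.010). DKC1, the pseudouridine synthase dyskerin, and GAR1 had -0.09 and 0.00 and did not pass the test. The CPM ratio of NOP10 to NHP2 was 1.06, 1.03 and 1.20 in NC and 1.99, 1.94 and 2.03 in si-EIF5A2, again a pair picked after the values were seen.

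Nucleolar chaperones and regulators held changes in both directions, with 2 of 5 called (all genes 24.6%). NOLC1, also known as Nopp140, a phosphoprotein that accompanies small nucleolar ribonucleoproteins, was at 55.8, 60.6 and 71.6 CPM in NC and at 146, 170 and 172 CPM in si-EIF5A2. The lowest si-EIF5A2 library stood well above the highest NC library. NOLC1 rose by 1.38 on the log2 scale (SE 0.11, edgeR adjusted p = 7.5e-05), to 259% of NC, and ranked 166 among the rises of the 8844 genes whose mean reached 10 CPM. NCL encodes nucleolin, an abundant RNA-binding protein of the nucleolus, and read 461, 481 and 516 CPM in NC and 271, 299 and 361 CPM in si-EIF5A2.

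The ranges of NCL did not overlap, although si-EIF5A2 library 3 lay nearer to NC than the others. NCL fell by 0.65 on the log2 scale (SE 0.11, edgeR adjusted p = 0.0027), and was no longer called without si-EIF5A2 library 1, at -0.57. NPM1, the nucleophosmin that shuttles between nucleolus and cytoplasm, was the most abundant of the 47 genes and was lower by less than 1.5-fold (-0.46, edgeR adjusted p = 0.011). It went from 1586 ± 204 CPM to 1155 ± 83 CPM (SD, n = 3), and its 49 annotated pseudogenes held 7.64% as many counts. The RNA helicase DDX21 (-0.11) and the MYB-binding repressor MYBBP1A (-0.19) did not pass the test.

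**Figure D4:**
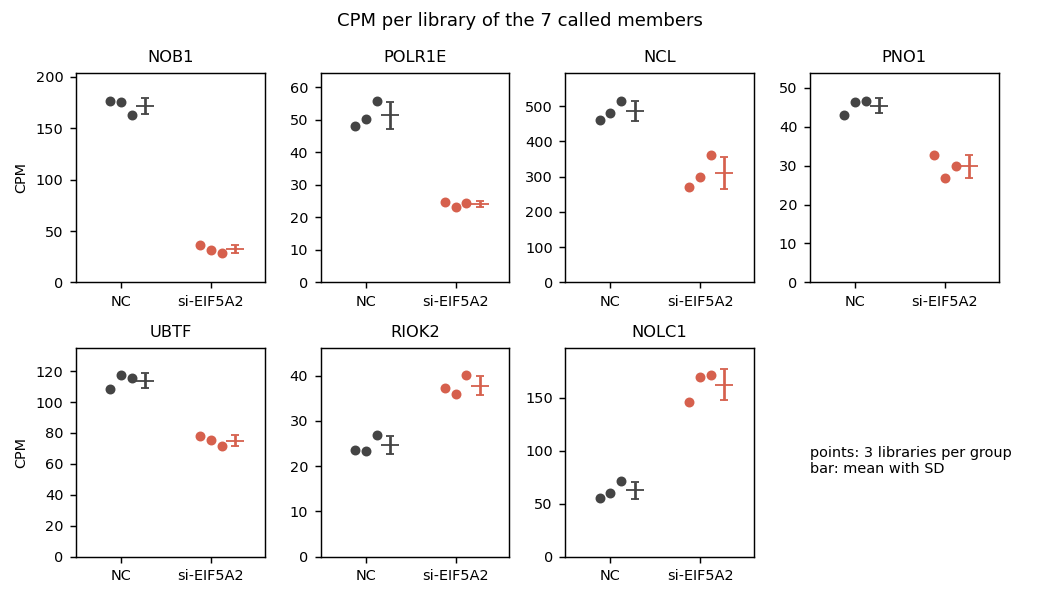
CPM (y axes, from 0) in each library for the 7 called genes; points are single libraries, 3 per group, and the crosses give the mean with its SD. The groups are separate in all 7 panels, with NOB1 going from between 163 and 177 CPM to between 28.9 and 36.5 CPM.

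In the small subunit processome, the assembly that forms on the 5′ part of the precursor RNA, 0 of 9 genes were called (all genes 24.6%). The largest change was that of UTP14A, a cofactor of the helicase that releases U3 RNA, with 91.2, 103 and 102 CPM in NC and 68.1, 67.5 and 63.9 CPM in si-EIF5A2. All NC libraries were above all si-EIF5A2 libraries. Its log2 fold change of -0.57 (SE 0.08, edgeR adjusted p = 0.00099) fell just short of 1.5-fold, and it was called without NC library 1 (-0.63), without si-EIF5A2 library 1 (-0.59) and without a filter on low counts (-0.60). NAT10, the RNA cytidine acetyltransferase, and UTP20, a large scaffold of repeats, were lower by less than 1.5-fold at -0.46 and -0.44 (edgeR adjusted p = 0.0029 and 0.028). The other 6 genes did not pass the test, with log2 fold changes from -0.18 for HEATR1 to 0.16 for NOL6: UTP15 had -0.13, the U3 protein RRP9 -0.09, WDR43 0.13 and UTP4 0.16. Opposite-strand neighbours held 70.0% as many counts as HEATR1 (LGALS8) and 46.2% as many as UTP15 (ANKRA2).

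The late 40S factors held the largest single change and 3 of the 7 called genes, or 3 of 8 in this role (37.5%, all genes 24.6%). NOB1 is the endonuclease that makes the final cut at the 3′ end of 18S ribosomal RNA. It lies on the minus strand at chr16:69741867-69754940 (GRCh38). NOB1 read 177, 175 and 163 CPM in NC and 36.5, 31.2 and 28.9 CPM in si-EIF5A2. Every si-EIF5A2 library was far below every NC library, and the fall was of similar size in each.

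NOB1 fell by 2.41 on the log2 scale (SE 0.10, edgeR adjusted p = 5.5e-06), to 18.8% of NC, and leaving out any 1 library gave values from -2.52 to -2.35. Among the 8844 genes whose mean reached 10 CPM this was the fall of rank 91. Within 500 kb, 20 other genes were tested, 12 of them reached the same mean, and 2 of these were called, both lower, with log2 fold changes from -1.27 to 0.48 over the 12. The member NIP7 lies in this stretch and had -0.12. The antisense gene NQO1-DT, which shares 429 exon bases with NOB1, held 0.037% as many counts.

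PNO1 binds pre-40S particles together with NOB1 and holds its cleavage site. It read 43.1, 46.3 and 46.7 CPM in NC and 32.7, 26.8 and 30 CPM in si-EIF5A2, without overlap. PNO1 fell by 0.60 on the log2 scale (SE 0.10, edgeR adjusted p = 0.0023) and was no longer called without si-EIF5A2 library 2, at -0.53. The CPM ratio of NOB1 to PNO1 was 4.11, 3.79 and 3.49 in NC and 1.12, 1.16 and 0.964 in si-EIF5A2, so the fall of NOB1 was the larger one in these libraries. This pair too was chosen after the values were seen.

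RIOK2, a kinase of late pre-40S particles, went the other way. It read 23.7, 23.3 and 26.99 CPM in NC and 37.3, 35.9 and 40.2 CPM in si-EIF5A2, and the groups did not overlap. RIOK2 rose by 0.62 on the log2 scale (SE 0.10, edgeR adjusted p = 0.0019), close to the limit, and was no longer called without NC library 2 (0.58) or without si-EIF5A2 library 3 (0.57). Its relative RIOK1 had -0.17 and did not pass the test. The CPM ratio of RIOK2 to RIOK1, also a pair chosen after the values were seen, was 1.51 ± 0.14 (SD, n = 3) in NC and 2.63 ± 0.27 in si-EIF5A2. LTV1, an export factor of the small subunit, was higher by less than 1.5-fold (0.38, edgeR adjusted p = 0.012), with 643 exon bases shared with another gene on its strand. TSR1, a GTPase-like factor of pre-40S particles, was lower by less than 1.5-fold (-0.30, edgeR adjusted p = 0.028). RRP12 and BYSL had -0.28 and -0.22 and did not pass the test.

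Of the 60S factors, 0 of 11 were called (all genes 24.6%), and their median log2 fold change was 0.08. Among the other 60S factors described below, 10 of 46 were called. The PeBoW complex of PES1, BOP1 and WDR12, which is needed to process the large-subunit precursor, had 0.21, -0.06 and -0.13, and none of the 3 passed the test. The nucleolar GTPases GNL2 and GNL3 (nucleostemin) were higher by less than 1.5-fold, at 0.47 and 0.24 (edgeR adjusted p = 0.0083 and 0.038), and GNL3L had 0.13. RRP1 (-0.14), LAS1L (-0.21), which cleaves a spacer of the precursor, and EBNA1BP2 (0.08) did not pass the test. Not passing the test does not show that levels were equal.

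NMD3, the adaptor that carries 60S subunits out of the nucleus, had the largest fold change among the 60S factors without being called. It read 91.9, 163 and 114 CPM in NC and 190, 176 and 263 CPM in si-EIF5A2. The groups did not overlap, but NC library 2 was only a little below the lowest si-EIF5A2 library. The log2 fold change was 0.77 (SE 0.26, edgeR adjusted p = 0.062), and without NC library 2 the gene was called, at 1.02. NIP7, another 60S factor, was spread widely in si-EIF5A2, at 32.7, 90.1 and 68.7 CPM, around its NC values of 63.3, 70.8 and 73.5 CPM. COG8, on the opposite strand of NIP7, held 61.6% as many counts.

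Levels per exon length were compared as TPM, which scales the counts by GENCODE exon length and then to a common total. In NC the highest mean TPM among the 47 genes were those of NPM1 at 1148, NOP10 at 850 and FBL at 368, and the lowest was that of UTP20 at 6.91. NOB1 went from 224 to 44.2 TPM, and NOLC1 from 43.7 to 119 TPM. On this scale NOP10 (1210 TPM) stood above NPM1 (878 TPM) in si-EIF5A2, whereas NPM1 was the higher of the pair in NC. The length used joins all annotated exons of a gene, 3828 bases for NPM1 and 554 for NOP10, so their order depends on it. By CPM, NPM1 stayed the higher in si-EIF5A2, at 1155 against 231.

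**Figure D5:**
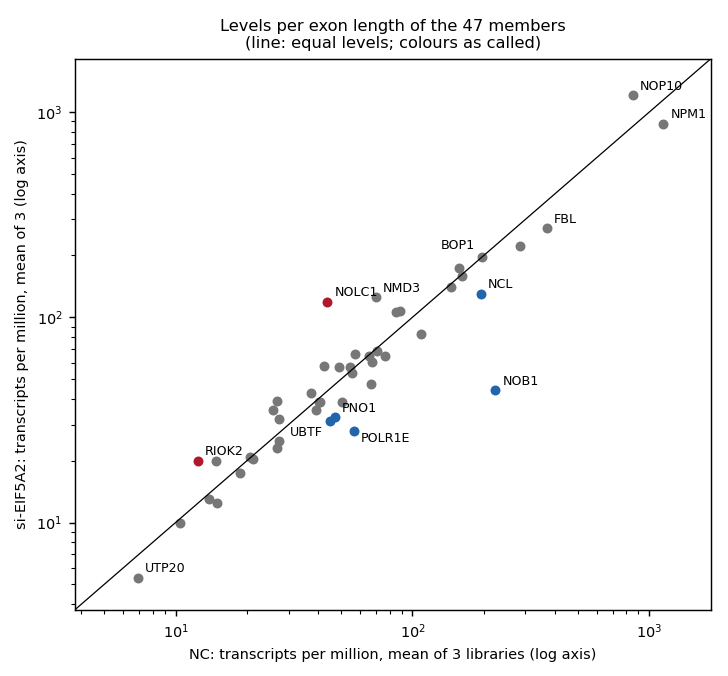
Mean TPM of 3 libraries in NC (x axis) and si-EIF5A2 (y axis), both on log axes, for the 47 genes; blue and red points are the genes called lower and higher, and the line marks equal levels. Most points lie near the line, NOB1 well under it at 224 against 44.2 TPM and NOLC1 above it at 43.7 against 119 TPM.

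The siRNA itself was compared with the transcripts of the 47 genes in GENCODE release 29. Its antisense strand, read from the study's supplementary list, was complementary to EIF5A2 over all 19 bases before the overhang. The longest complementary stretch among the 47 genes had 11 bases (NOP56 and POLR1A), and that in NOB1 had 8 bases. At any offset of the strand and anywhere in a transcript, this length was reached by 8513 of 16176 tested genes with transcripts. That share does not describe 8-base matches to the 5′ end of the strand within a 3′ UTR, which were not counted. Matches to the seed, positions 2 to 8 of the antisense strand, were in the 3′ UTR of 11 of 47 genes (23.4%), against 2555 of 12827 tested genes with a 3′ UTR (19.9%). These were NCL, UBTF and NOB1 among the called genes, and DKC1, MYBBP1A, POLR1A, POLR1B, POLR1C, POLR1D, GNL3 and LAS1L among the others. The 19.9% counts seed matches with or without pairing to the first base of the strand. In NOB1 the base after the seed match also pairs with that first base, so this site reaches the 8 bases given above. The match in NOB1 is shown because that gene fell most, with the seed match in capitals.
NOB1: atttatattttTGCCAGAaaatacaaggt

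This stretch lies at chr16:69741894-69741922 on the minus strand (GRCh38), and the match begins at base 421 of the 465 bases of the 3′ UTR of transcript NOB1-201. The part of such matches in the changes of NOB1, NCL and UBTF was not tested.

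Other genes of the pathway were counted in 4 lists of 128 genes, all tested. Of these, 21 were called (16.4%), 14 lower and 7 higher, a share below the 24.6% of all genes, and their median log2 fold change was -0.11. The RNA polymerase I list had 4 of 15 called (26.7%, near the share of all genes), all lower. TBP, the TATA-binding protein of the SL1 factor (-1.59), and POLR1G, the partner subunit of POLR1E (-1.27), had the largest changes. POLR2E, a subunit shared by all 3 nuclear polymerases, came next (-0.89). TBP went from 23.1 ± 1.8 CPM to 7.66 ± 0.39 CPM (SD, n = 3). No polymerase I gene in either list was called higher, where 11.1% of all genes tested were, and both lists are short. RRN3 was higher by less than 1.5-fold, and POLR1B had 0.35 without passing the test.

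The other genes of the small subunit processome had 3 of 44 called (6.82%, all genes 24.6%), NOL10 (-1.04), the helicase DHX37 (0.97) and NOC4L (-0.67). The other 60S factors had 10 of 46 called (21.7%, all genes 24.6%), 5 lower and 5 higher. The largest were RRP15 (-1.89), from 24.8 ± 2.7 to 6.69 ± 0.37 CPM, NLE1 (-1.46), and SBDS (1.09), which helps release EIF6 from the 60S subunit and went from 96.3 ± 15.9 to 206 ± 14 CPM. The RNA exosome and RNase MRP had 4 of 23 called (17.4%, all genes 24.6%). Of these, EXOSC2 (-1.17) and EXOSC8 (-0.76), both subunits of the exosome core, were lower. POP1, the large protein of RNase MRP and RNase P, was higher at 0.96. All values in these lists are log2 fold changes of the same fit.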

How the data were processed

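RNA-seq of 6 SKOV3 libraries was compared, 3 NC and 3 si-EIF5A2. Libraries of mRNA were sequenced in paired ends. The authors used StringTie and ballgown to estimate expression, and what they deposited are estimated counts for each gene, whole numbers without normalization. The lowest values are spaced in steps of 3.73, so 1 fragment is worth several counts. The aligner and the genome build are not given in the sources used here; the submitters' processing notes list Bowtie 0.12.2 with mm8 and mm9, mouse builds that do not match the human Ensembl identifiers. The 6 columns were matched to the libraries by name.

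Symbols, positions and exon lengths came from GENCODE release 29 (GRCh38) and promoters from RefSeq. Tests had been planned for counts. edgeR 4.0.16 (R 4.3.3) was run with TMM scaling, its filter on low counts (16208 genes kept), robust quasi-likelihood fits and adjustment after Benjamini and Hochberg over these genes. The scripts were tested on simulated data. CPM used TMM library sizes. With 3 against 3 libraries, an exact permutation test cannot go below p = 0.10, so none was run.

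Values in each library are given for called genes and for the largest change in each role, and for EIF5A2; in the other pathway lists the 3 largest called changes are named. A few further values were chosen after they were seen. The 47 genes, their roles and the lists were chosen with earlier results of these data known. Alternatives were other scalings, DESeq2 1.42.0, other filters and thresholds, a replicate block, counts divided by their step, and leaving out each library.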

Additional observations from a re-analysis of the deposited data

How the results depend on the processing

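The 7 called genes were all kept under RLE and upper-quartile scaling, library size only, DESeq2, a minimum of 10 counts per library, the table without a filter on low counts, and counts divided by their step. With no limit on fold change, 21 of the 47 genes (44.7%) and 57 of the 128 other pathway genes (44.5%) were called. This compares with 36.9% of all genes tested and 50.3% of those within the range of mean CPM of the 47 genes. At the threshold of the study's methods, a fold change over 2 or under 0.5 with p under 0.05, these counts were 3 and 7. The share of all genes at that threshold was not counted, so these 2 counts cannot be read as many or few. DESeq2 also called NMD3 (0.76) and the unfiltered fit UTP14A (-0.60). Leaving out 1 library at a time, 5 to 8 of the 47 genes and 19 to 25 other pathway genes were called, and 1 of the 47 was called higher without si-EIF5A2 library 3. NCL, PNO1, UBTF and RIOK2 each lost the call without 1 or 2 of the libraries, always through the limit on fold change. Among the 47 genes the sign turned for GAR1, POLR1C, BOP1 and NIP7, none of which passed the test: leaving out 1 library gave -0.11 to 0.08, -0.21 to 0.02, -0.17 to 0.04 and -0.45 to 0.19. The median of the 47 genes stayed between -0.16 and -0.10. Groups of 3 libraries were not tested for outlying values.

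The replicate block gave the same 7 calls, 22 other pathway genes and 3731 calls over all genes against 3992. Libraries with the same number shared only that number: correlations of their deviations from the group means were -0.024, 0.0052 and -0.0027.

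All 47 genes lay far above the limit of 3 fragments, which was 0.151 CPM in the deepest and 0.239 CPM in the shallowest library and covers counting error only, so depth set no limit on their detection.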
